A study of Mus musculus with 8 samples.

Results

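The comparison described here was made inside a single cell line, called sh8: mouse 3T3-L1 preadipocytes stably transfected with a short hairpin RNA (shRNA-8) against the long noncoding RNA slincRAD. Its members are 4 of the 8 arrays of the series, chosen by their labels: sh8 at days +2 and +4, after the start of hormonal induction, against sh8 at days -2 and 0, before it. The other 4 arrays hold wildtype 3T3-L1 cells (WT) of the same days and served for 1 comparison of the changes in the lines. All cells were grown in 10% newborn calf serum. Day 0 was confluence, after which the medium was changed every 2 days to one with the mix known as MDI, made of 0.5 mM isobutylmethylxanthine (IBMX), 1 µM dexamethasone and 167 nM insulin. There was 1 array for each day of a line. The 2 days of a period therefore stand in for replicates, and the error of every change within sh8 below holds the difference between these days. Where the changes of the lines are compared, the error holds the variation of the line difference between these days. Nothing in the labels says how many clones or cultures the sh8 line came from, and the control is the untransfected parent and not a line with another hairpin. No probe could be matched to slincRAD by name, so its level was not checked here.

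3T3-L1 cells are fibroblast-like cells committed to the fat lineage. Confluent cells that receive MDI usually re-enter the cell cycle for a short clonal expansion and then become fat cells that store triglyceride in droplets. Dexamethasone acts through the glucocorticoid receptor, IBMX blocks the breakdown of cyclic AMP, and insulin at high concentration also acts through the IGF1 receptor. Early factors such as Cebpb and Cebpd are known to switch on Pparg and Cebpa, which in turn drive genes of the mature fat cell.

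Each level is a log2 spot intensity set against the 75th percentile of all probes on the same array, which lies at 0, and 4 numbers in a row follow the order of days -2, 0, +2 and +4. The 75th percentile of the sh8 arrays lay between 760 and 1171 intensity units, no spot was saturated, and the share of probes well above background was 66.8% and 64.9% on the arrays of days -2 and 0 and 81.7% and 78.3% on those of days +2 and +4. By the file headers the arrays of days -2 and 0 shared 1 scan and those of days +2 and +4 another, in both lines, so that within sh8 the scan and the period cannot be told apart. A probe entered the test only if it was well above background on both sh8 arrays before induction, which kept 20442 genes and unnamed transcripts (14184 named). Markers of fibroblasts and preadipocytes were bright throughout: 7 of 7 measured markers were well above background on each sh8 array, with a summed level of 497, 647, 514 and 567 times the 75th percentile. Transcripts of lung moved with the period. The 9 measured lung epithelium markers summed to 7.60, 6.91, 17.2 and 19.8 times that percentile in sh8 and to 10.6, 9.73, 19.2 and 23.3 times in WT, but Lamp3 made up nearly all of these sums before induction. Without it the other 8 summed to 0.61, 0.62, 10.8 and 11.6 times in sh8 and to 0.38, 0.43, 7.55 and 10.2 times in WT. The median log2 level of all 9 was -5.00, -5.51, 0.75 and 0.97 in sh8 and -6.04, -5.04, 0.13 and 0.63 in WT. The 4 red blood cell markers summed to 0.083, 0.083, 2.11 and 2.84 times in sh8. The 8 leukocyte markers summed to 2.68, 2.14, 3.06 and 2.90 times in sh8. The part of these transcripts in the changes below was not tested. Fewer cells of a type and less RNA per cell cannot be told apart in such bulk samples.

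**Figure D1:**
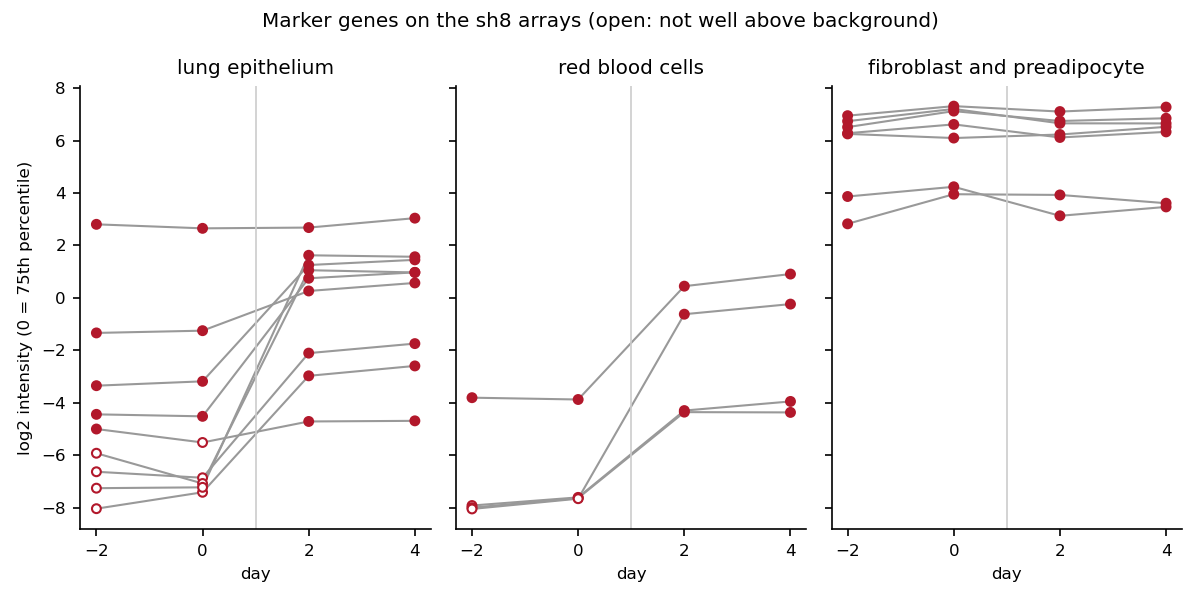
Level of each marker on the 4 sh8 arrays by day, in log2 intensity with 0 at the array's 75th percentile; each line is 1 gene, open circles mark a probe not well above background, and the grey vertical line separates the days before and after induction. Most lung and red blood cell markers stand higher on the arrays of days +2 and +4, while the 7 fibroblast and preadipocyte markers stay bright on all 4.

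After induction, 73 of the 20442 features rose (0.357%) and 20 fell (0.0978%) at an adjusted p under 0.05 by limma, 93 in all (0.455%), with 4303 at an unadjusted p under 0.05 and a median change of 0.06. All 93 changed at least 2-fold, and on none did the arrays of a period overlap those of the other. Over all 20442 features, 15149 had a mean level of at least -3 before induction. Of the 73 that rose, 45 were dim before induction, with a mean level under -3, so the rises called lie mostly among weak signals. The number rested on both arrays after induction: it was 0 without day +2 (2348 at an unadjusted p under 0.05) and 0 without day +4 (1552), but 3905 without day 0 and 979 without day -2. It was also 0 when only probes with a mean of at least -3 before induction were kept (2710 at an unadjusted p under 0.05). A fit that takes the spread from all 8 arrays called 1087 higher (5.32%) and 497 lower (2.43%), among them 90 of the 93. The split of calls was 60 higher and 34 lower with quantile scaling, and 67 and 40 with the authors' deposited values. Both arrays after induction lay above both arrays before it for 6518 features (31.9%) and below them for 4783 (23.4%), and the counts for gene lists below are read against these shares. With 2 arrays a side, an exact two-sided permutation test cannot go below 0.33.

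The step between the 2 days before induction reached as many features as the step across induction. From day -2 to day 0, 1109 features rose and 831 fell by at least 1 on the log2 scale. From day 0 to day +2 the numbers were 1098 and 753, and from day +2 to day +4 they were 263 and 302. These are differences between single arrays and have no test. The array of day 0, the confluent culture, thus stood apart from that of day -2 to a degree that the arrays of days +2 and +4 did not from each other.

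The 10 largest rises among named genes that passed the test are given first. Rgs2, a regulator of G protein signalling that cyclic AMP induces, stood at 0.82, 2.29, 5.85 and 6.05, a change of 4.40 ± 0.49 (SE, 2 arrays a side, adjusted p = 0.0472). It was already higher at day 0 than at day -2, and the step to day +2 was the widest. Prg4, which encodes the lubricant proteoglycan lubricin, stood at -1.57, -0.34, 3.46 and 3.08 (4.23 ± 0.44, adjusted p = 0.0396). Il33, an alarmin cytokine, stood at -2.59, -1.45, 2.59 and 1.91 (4.27 ± 0.45, adjusted p = 0.0404). In WT it stood at -2.48, -1.08, -0.76 and -0.97, so that the lines were alike before induction and apart after it.

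Alpl, tissue-nonspecific alkaline phosphatase, stood at -4.21, -3.05, 0.50 and 1.05 in sh8 (4.41 ± 0.44, adjusted p = 0.0391). The acute-phase glycoprotein gene Orm2 stood at -5.45, -3.99, 0.07 and 0.62 (5.06 ± 0.51, adjusted p = 0.0396). Serpina3m, a serine protease inhibitor, stood at -3.55, -3.60, 1.36 and 0.89 (4.70 ± 0.25, adjusted p = 0.0189). All 3 were dim before induction and reached about the 75th percentile after it. Arl14epl stood at -4.89, -4.17, 0.47 and -0.20 in sh8 (4.66 ± 0.36, adjusted p = 0.0316) and at -3.60, -5.47, -5.01 and -5.39 in WT, where no array came near the sh8 level after induction.

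The other 3 of the 10 were markers of lung and blood that passed the filter on dim probes. Sftpa1, a surfactant protein of lung, stood at -4.44, -4.52, 0.75 and 0.97 (5.34 ± 0.21, adjusted p = 0.018), the largest rise of all named genes called. Scgb1a1, a secretoglobin of airway club cells, stood at -3.35, -3.18, 1.25 and 1.45 (4.62 ± 0.21, adjusted p = 0.0189). Hba-a1, an alpha globin, stood at -3.81, -3.87, 0.45 and 0.91 (4.52 ± 0.24, adjusted p = 0.0189). WT moved alike, by 5.70, 4.80 and 4.55. Coro1a, an actin-binding protein of leukocytes, also rose, from -3.34 and -3.03 to -0.34 and -0.56 (2.74 ± 0.23, adjusted p = 0.0373).

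The 10 largest falls among named genes that passed the test follow. Fbln5, an elastic fibre protein, stood at 3.38, 3.22, 0.32 and 0.54, a fall of 2.87 on the log2 scale (SE 0.22, adjusted p = 0.0316), and was the brightest of the 10. Col8a1, a chain of collagen VIII, stood at -0.43, -0.53, -3.44 and -3.30 (-2.89 ± 0.21, adjusted p = 0.0316). Mfap5, a protein of microfibrils, stood at 0.08, 0.49, -2.36 and -2.07 (-2.49 ± 0.25, adjusted p = 0.0396). The rule that chose the 10 asks for such a gap between the periods, so the gap is not a separate result.

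The orphan receptor gene Gpr176 stood at -0.74, -1.62, -4.64 and -4.88 (-3.58 ± 0.34, adjusted p = 0.0391). Adgrg6, an adhesion receptor, stood at -1.03, -1.13, -3.51 and -3.51 (-2.43 ± 0.20, adjusted p = 0.0373). Cgref1 stood at -0.43, -0.49, -3.85 and -3.34 (-3.13 ± 0.25, adjusted p = 0.0366). WT moved by -3.81, -2.59 and -3.31 in these 3. Apol10b, of the apolipoprotein L family, stood at 0.64, 0.29, -1.86 and -2.06 (-2.42 ± 0.23, adjusted p = 0.0391), and the imprinted noncoding RNA Meg3 at -3.21, -2.93, -5.83 and -5.92 (-2.81 ± 0.22, adjusted p = 0.0316).

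For 2 of the 10 the level after induction is only a bound, since the probe was not well above background there. Ttr, the thyroid hormone carrier transthyretin, stood at -4.17 and -3.43 before and -7.57 and -8.37 after, at least 6.24-fold lower (adjusted p = 0.0391). Chl1, a neural cell adhesion molecule, stood at -5.31 and -4.99 before and -8.87 and -8.43 after, at least 2.45-fold lower (adjusted p = 0.0316). For the dim side of a bound, each array gave the dimmest value at which any probe was well above background, or the probe's own where that was higher. Another probe of Chl1, which failed the filter, moved by 2.15 in the opposite direction.

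**Figure D2:**
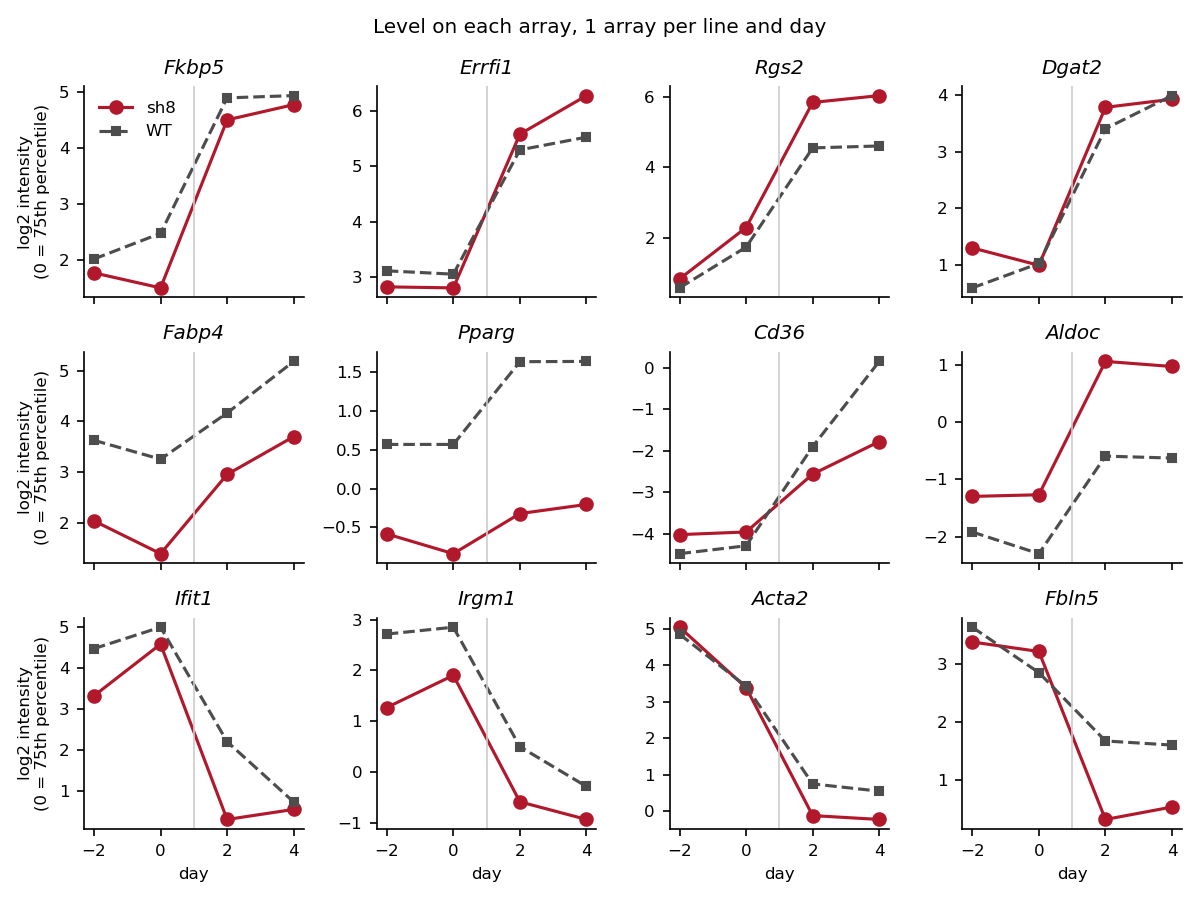
Level of 12 genes on each array by day, in log2 intensity with 0 at the array's 75th percentile; red circles are sh8 and grey squares WT, each point is 1 array, and the grey vertical line separates the days before and after induction. In sh8, Fkbp5, Errfi1, Rgs2, Dgat2 and Aldoc stand higher on both arrays after induction and Ifit1, Irgm1, Acta2 and Fbln5 lower, while Pparg spans only -0.84 to -0.20.

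Genes known to answer to glucocorticoids were mostly higher after induction. Of 20 listed genes, 18 were tested and 2 passed the test, both higher; 14 of the 18 lay higher on both arrays after induction and 0 lower, with a median change of 1.30 against 0.06 over all features (0.91 to 1.62 over the 13 alternatives). The shares of 77.8% higher and 0% lower on both arrays stand against 31.9% and 23.4% over all features. The fit over 8 arrays called 10 of the 18 higher and 0 lower. Fkbp5, a chaperone that damps the receptor and is a standard readout of dexamethasone, stood at 1.77, 1.50, 4.51 and 4.78, an 8.02-fold rise (3.00 ± 0.23 on the log2 scale, adjusted p = 0.0316). Errfi1, a feedback inhibitor of EGF receptor signalling, stood at 2.83, 2.81, 5.58 and 6.27 (3.10 ± 0.29, adjusted p = 0.0391). Both were close between days -2 and 0 and high on both arrays after induction.

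Glul, glutamine synthetase, stood at 0.28, 1.30, 3.74 and 3.97 (3.07 ± 0.37) and did not pass, at an adjusted p of 0.0519. Ddit4, an inhibitor of mTORC1, stood at 4.68, 4.53, 6.10 and 6.40 (1.65 ± 0.22, adjusted p = 0.0578). Lcn2, an iron-binding lipocalin, stood at 4.63, 5.17, 6.52 and 6.32 (1.52 ± 0.27, adjusted p = 0.0763). The widest difference of the list was that of Zbtb16, a zinc finger factor named here after its values were seen: -2.75, -0.62, 2.13 and 2.27 (3.89 ± 0.68, adjusted p = 0.0763). Its 2 arrays before induction differed by more than 2 on the log2 scale, unlike those of Fkbp5 and Errfi1. The receptor itself, Nr3c1, stood at 3.37, 4.18, 3.84 and 3.58.

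Targets of cyclic AMP formed a more mixed group. Of 18 listed genes, 15 were tested and Rgs2 alone passed. On both arrays after induction 8 lay higher (53.3%) and 2 lower (13.3%), against 31.9% and 23.4% over all features. The list had a median change of 0.66. The genes with the lowest p after Rgs2 were 3 phosphodiesterases, of the enzymes that break down cyclic AMP and that IBMX blocks. Pde4d stood at -2.07, -1.80, -0.03 and -0.27 (1.79 ± 0.23, adjusted p = 0.0533). Pde4b stood at -2.11, -3.19, 0.17 and 0.11 (2.79 ± 0.38, adjusted p = 0.06), and Pde3b at 0.63, 0.50, 1.99 and 1.73 (1.29 ± 0.22, adjusted p = 0.0745). None of the 3 passed, though the periods did not overlap in any of them. Of the other phosphodiesterases tested, Pde4a lay lower on both arrays after induction (-0.64), and Pde10a overlapped between periods (-0.26). The immediate early receptor Nr4a1 stood at 2.42, 0.80, 3.62 and 3.63 (2.01 ± 0.53, adjusted p = 0.133).

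Promoter sequence is shown for Errfi1 because, of the 15 glucocorticoid targets with a promoter in the table, it and Dusp1 held the palindromic cyclic AMP response element TGACGTCA in the 250 bases before the start; 0 of 11 cyclic AMP targets did, against 2.79% of 11301 tested genes with a promoter. Sequences are from RefSeq (GRCm38.p6), run 5′ to 3′ on the gene's strand, and have the motif in capitals. The window lies at chr4:150854989-150855056 on the plus strand.
Errfi1: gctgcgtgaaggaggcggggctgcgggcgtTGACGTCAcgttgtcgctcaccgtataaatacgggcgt
The glucocorticoid response element, searched as GNACA, any 3 bases and TGTNC, was found in 2 of the 15 glucocorticoid targets (Sgk1 and Mt1) and in 0.38% of all. Every motif was searched on both strands. A match is a run of letters and not a measured binding site.

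None of the core adipogenic regulators passed the test in sh8. Pparg, the nuclear receptor at the centre of fat cell formation, stood at -0.58, -0.84, -0.32 and -0.20, a change of 0.45 ± 0.22 (adjusted p = 0.31). In WT it stood at 0.57, 0.57, 1.63 and 1.64, above every sh8 array on all days. Cebpa stood at -4.23, -4.00, -3.46 and -3.11 (0.83 ± 0.24, adjusted p = 0.149), a dim signal on all 4 arrays. Cebpb was among the brightest genes, at 6.39, 6.70, 6.43 and 6.81 (0.08 ± 0.25, adjusted p = 0.886), and its periods overlapped. Cebpd stood at 5.43, 6.04, 6.17 and 6.42 (0.56 ± 0.28, adjusted p = 0.33).

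Over the whole list of 22 adipogenic transcription factors, 21 were tested and 0 passed. On both arrays after induction 10 lay higher (47.6%) and 3 lower (14.3%), against 31.9% and 23.4% over all features. The list had a median change of 0.25. The lowest p was that of Bcl6, a repressor that favours adipogenesis, at 1.99, 1.57, 3.80 and 3.73 (1.98 ± 0.24, adjusted p = 0.0519). Klf9 stood at 1.10, 1.86, 2.51 and 2.92 (1.24 ± 0.33, adjusted p = 0.135), and Klf15 at -3.51, -2.25, -1.69 and -0.99 (1.54 ± 0.48, adjusted p = 0.174). In the other direction lay Klf2, which is known to restrain Pparg, at 1.45, 1.97, 0.27 and -0.09 (-1.62 ± 0.28, adjusted p = 0.075).

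Genes of the mature fat cell were higher at day +4 than before induction for some members only. Of 24 listed, 17 were tested and 0 passed. On both arrays after induction 9 lay higher (52.9%) and 1 lower (5.88%), against 31.9% and 23.4% over all features. The median of the members' changes was 0.55 in sh8 and 0.63 in WT. The median level of the 17 was 0.31, 0.83, -0.66 and -0.33 in sh8 and 0.85, 0.65, 1.88 and 2.00 in WT. In sh8 that level was lower after induction, against the sign of the median change. The filter left out Adipoq, Plin1, Cidec, Lep, Cfd, Slc2a4 and Pck1. Fabp4, the fatty acid chaperone of fat cells, stood at 2.04, 1.39, 2.95 and 3.70, a 3.05-fold difference (1.61 ± 0.36, adjusted p = 0.104). WT held more of it on each day, at 3.63, 3.25, 4.16 and 5.18. Cd36, a fatty acid transporter, stood at -4.02, -3.96, -2.56 and -1.78 (1.82 ± 0.31, adjusted p = 0.0755), against -4.48, -4.29, -1.90 and 0.15 in WT. The glycerol channel gene Aqp7 stood at 1.27, 1.46, 2.21 and 2.90 (1.19 ± 0.30, adjusted p = 0.12).

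Lipe, hormone-sensitive lipase, stood at -4.83, -4.74, -3.98 and -3.82 (0.89 ± 0.21, adjusted p = 0.112), and the adiponectin receptor gene Adipor2 at 2.77, 2.86, 3.53 and 3.75 (0.83 ± 0.21, adjusted p = 0.126). Lpl, lipoprotein lipase, stood at 2.83, 4.37, 3.00 and 3.63 (-0.29 ± 0.55, adjusted p = 0.793): its highest sh8 array was that of day 0. The member that lay lower was Plin4, a droplet coat protein, at 0.31, 1.67, -0.91 and -0.33 (-1.61 ± 0.49, adjusted p = 0.168). The fat cell hormone Adipoq and the droplet protein Plin1 were not well above background before induction and are given with the genes rising from background. The 5 fat cell markers other than Fabp4 (Adipoq, Plin1, Cidec, Retn and Lep) were dim, and summed to 0.11, 0.12, 0.26 and 0.25 times the 75th percentile in sh8 and to 0.09, 0.10, 0.29 and 0.81 times in WT.

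Preadipocyte genes split both ways: of 17 tested, 0 passed, 5 lay higher and 9 lower. These shares were 29.4% and 52.9%, against 31.9% and 23.4% over all features. Dlk1, the classical preadipocyte marker, stood at 5.72, 5.75, 4.89 and 4.51 (-1.04 ± 0.23, adjusted p = 0.104), 2.05-fold lower and still bright. Zfp521, a factor that restrains adipogenesis, stood at 0.53, 0.60, -0.86 and -0.59 (-1.29 ± 0.22, adjusted p = 0.0744). Cd34 lay on the other side, at -2.26, -3.20, -1.03 and -0.74 (1.85 ± 0.36, adjusted p = 0.0858).

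In triglyceride synthesis 1 gene passed the test. Dgat2, the acyltransferase that completes triglyceride, stood at 1.30, 1.00, 3.78 and 3.92, a 6.50-fold rise (2.70 ± 0.22, adjusted p = 0.0373), and WT moved by 2.88. It was the member called among 11 tested genes of this pathway, of which 4 lay higher and 3 lower. These shares, 36.4% and 27.3%, were near the 31.9% and 23.4% over all features. Lpin1, a phosphatidate phosphatase, stood at -5.29, -5.05, -3.23 and -3.49 (1.81 ± 0.23, adjusted p = 0.0525), and Dgat1 at -1.25, -1.13, 0.08 and 0.35 (1.41 ± 0.22, adjusted p = 0.0684). Of 16 tested genes of fatty acid synthesis 0 passed, and 2 lay higher (12.5%) and 2 lower (12.5%), below those shares over all features. The lowest p was that of the desaturase Scd1, at 0.72, -0.26, 1.97 and 1.68 (1.59 ± 0.37, adjusted p = 0.11).

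Of 21 tested genes of fatty acid oxidation 0 passed, and 8 lay higher and 5 lower. These shares, 38.1% and 23.8%, were near the 31.9% and 23.4% over all features. Cpt1a, which admits fatty acids to mitochondria, stood at 1.50, 1.42, 0.45 and 0.12 (-1.18 ± 0.22, adjusted p = 0.0829). Against 31.9% and 23.4% over all features, 2 of 25 genes of cholesterol synthesis lay higher (8%) and 1 lower (4%), and 0 passed. Their median change of -0.33 became 0.44 without day -2 and 0.07 without day +4, so it has no settled sign.

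Genes of glycolysis and glucose uptake lay mostly higher after induction, by small amounts. Of 23 listed, 22 were tested; 17 lay higher on both arrays after induction and 0 lower, against 31.9% and 23.4% over all features, and the median change was 0.46 (0.41 to 0.52 over the 13 alternatives). Aldoc, the brain-type aldolase, was the 1 member that passed, at -1.30, -1.27, 1.06 and 0.97, a 4.93-fold rise (2.30 ± 0.20, adjusted p = 0.038). Pfkfb3, which makes the main activator of phosphofructokinase, stood at 0.33, -0.06, 1.74 and 1.82 (1.64 ± 0.23, adjusted p = 0.0644) in sh8 and moved by 0.50 in WT. Eno2, an enolase, stood at -0.56, 0.12, 1.26 and 0.94 (1.32 ± 0.30, adjusted p = 0.109), with 0.15 in WT. Hexokinase Hk2 stood at 1.77, 2.08, 2.80 and 3.03 (0.99 ± 0.23, adjusted p = 0.112), with 0.20 in WT.

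Among 15 tested genes of IGF and insulin signalling, 5 lay higher (33.3%) and 5 lower (33.3%), against 31.9% and 23.4% over all features. The binding protein gene Igfbp2 was called, at -5.58, -5.02, -2.84 and -2.35 (2.70 ± 0.30, adjusted p = 0.0472). Irs1, the adaptor of the insulin receptor, stood at 2.86, 2.97, 1.41 and 1.57 (-1.42 ± 0.21, adjusted p = 0.0661).

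Interferon-stimulated genes, which encode antiviral proteins and are switched on by interferons, formed the list with the lowest median. All 36 measured members were tested and 0 passed; 30 lay lower on both arrays after induction and 1 higher, against 23.4% and 31.9% over all features, and the median change was -1.72 (-2.46 to -1.10 over the 13 alternatives). The fit over 8 arrays called 11 of the 36 lower. The median level of the list was 1.20, 2.47, -0.07 and -0.36 in sh8 and 2.69, 3.08, 1.16 and 0.10 in WT, where the median change was -1.88. In both lines the array of day 0 was the highest.

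Ifit1, which binds foreign RNA, stood at 3.32, 4.58, 0.30 and 0.55, an 11.5-fold difference (-3.52 ± 0.44, adjusted p = 0.0525). Oasl2 stood at 3.22, 4.17, 0.86 and 0.39 (-3.07 ± 0.38, adjusted p = 0.0525). Irgm1, an immunity-related GTPase, stood at 1.27, 1.90, -0.59 and -0.94 (-2.35 ± 0.30, adjusted p = 0.0528), and a further probe for it moved by -2.02. Xaf1 stood at 0.95, 1.78, -1.03 and -1.26 (-2.51 ± 0.33, adjusted p = 0.0565), and the oligoadenylate synthetase gene Oas1a at 3.14, 3.96, 1.58 and 1.35 (-2.08 ± 0.33, adjusted p = 0.0689). In each of these 5 both arrays after induction lay below both before it, and day 0 was the highest.

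The member that lay higher was Oasl1, at -1.66, -2.67, -0.39 and -0.78 (1.58 ± 0.39, adjusted p = 0.117). The immunoproteasome gene Psmb8, at -1.97, -1.03, -1.41 and -1.48, overlapped between periods. Oasl1, Psmb8, Isg15 and Ifit3 were named after their values were seen.

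Promoters of this list are shown because 30 of its 36 members lay lower on both arrays after induction. The core of the interferon-stimulated response element, searched as GAAA, any 2 bases and GAAA, was found in 14 of the 29 members with a promoter in the table (48.3%), against 374 of 11301 tested genes (3.31%), within 250 bases before the start. On the strand of a gene the motif reads in that form or as its reverse complement, and overlapping copies were counted apart. Ifit1, Ifit3, Oas1a and Irgm1 each held 2 copies and Isg15 held 3. The windows, in capitals where the motif lies, are at chr19:34640755-34640843 (plus strand) for Ifit1, chr19:34583343-34583446 (plus) for Ifit3, chr4:156200845-156200926 (minus) for Isg15, chr5:120907526-120907575 (minus) for Oas1a and chr11:48871421-48871480 (minus) for Irgm1, in GRCm38.p6.
Ifit1: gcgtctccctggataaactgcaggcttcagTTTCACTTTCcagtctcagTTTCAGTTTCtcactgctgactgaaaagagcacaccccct
Ifit3: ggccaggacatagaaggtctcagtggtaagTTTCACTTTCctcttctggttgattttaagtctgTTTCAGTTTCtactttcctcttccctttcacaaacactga
Isg15: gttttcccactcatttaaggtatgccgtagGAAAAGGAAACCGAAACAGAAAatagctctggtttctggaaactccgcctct
Oas1a: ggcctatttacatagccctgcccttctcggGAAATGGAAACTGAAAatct
Irgm1: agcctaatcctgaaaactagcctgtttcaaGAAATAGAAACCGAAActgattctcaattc
Isg15, a ubiquitin-like protein, stood at 4.13, 5.57, 2.85 and 2.85, and Ifit3 at 2.68, 5.02, 0.77 and 0.88, both below their levels before induction on each array after it. In these windows the copies overlap in Oas1a, Irgm1 and Isg15 and lie apart in Ifit1 and Ifit3.

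**Figure D3:**
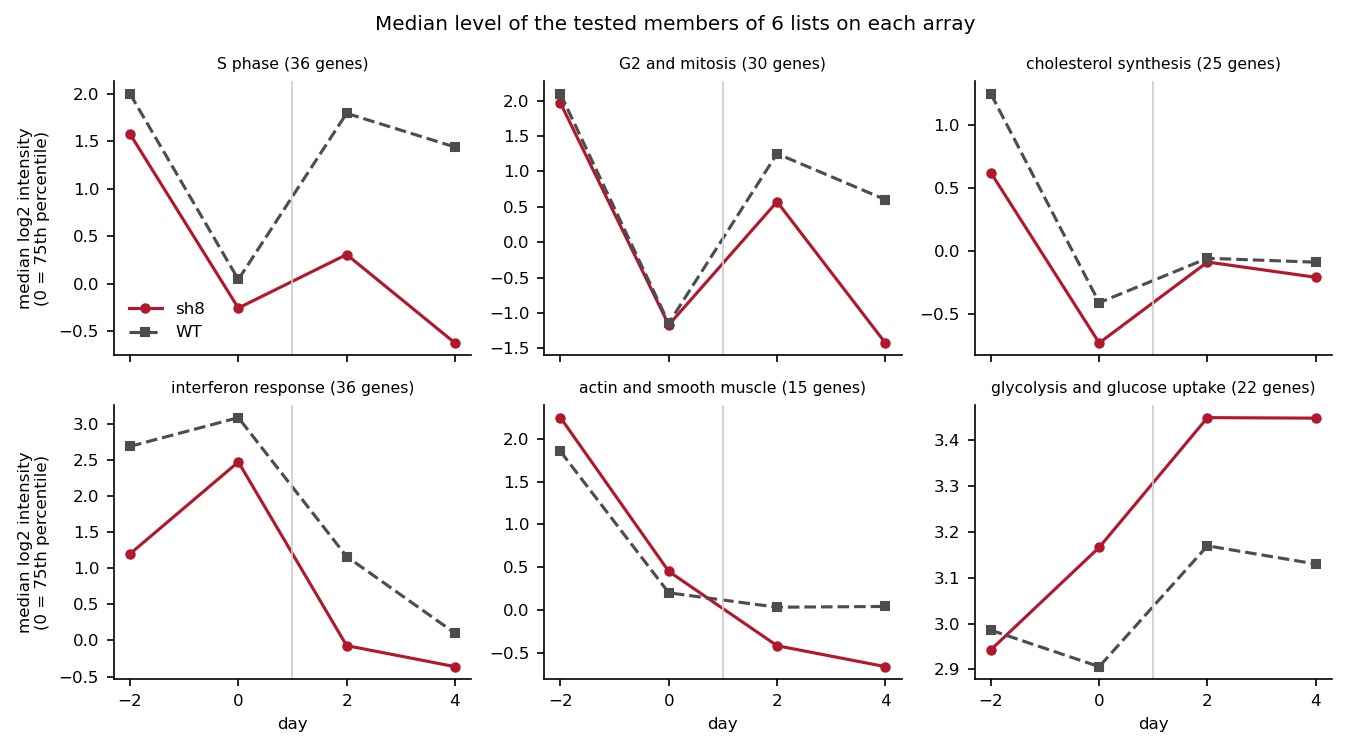
Median log2 level of the tested members of 6 gene lists on each array by day, with 0 at the array's 75th percentile; red circles are sh8, grey squares WT, and each point is 1 array. Interferon response members lie highest at day 0 and low after induction in both lines, and the S phase median of sh8 is -0.63 at day +4 against 1.44 in WT.

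Genes of the contractile apparatus had a negative median change, and much of the decline lay before induction. Their median level was 2.24, 0.45, -0.41 and -0.66, and the median step of a member was -0.74 from day -2 to day 0 and -0.57 from day 0 to day +2. Of 20 listed, 15 were tested and 0 passed. On both arrays after induction 0 lay higher and 11 lower (73.3%), against 31.9% and 23.4% over all features. The list had a median change of -1.02 (-1.56 to -0.50 over the 13 alternatives). The fit over 8 arrays called 4 of the 15 lower. Acta2, smooth muscle actin, stood at 5.05, 3.39, -0.13 and -0.23, a 21.1-fold difference (-4.40 ± 0.55, adjusted p = 0.0525). Myl9, a myosin light chain, stood at 2.49, 0.82, -2.28 and -2.19 (-3.89 ± 0.55, adjusted p = 0.0626). Both were also lower at day 0 than at day -2. Cnn2, a calponin, stood at 3.20, 2.92, 1.23 and 1.30 (-1.80 ± 0.22, adjusted p = 0.0519), and the tropomyosin Tpm1 at 2.24, 1.69, 0.38 and 0.59 (-1.49 ± 0.27, adjusted p = 0.0791). Further probes that passed the filter moved less, by -0.40 for Cnn2 and by -0.09 to -0.82 for Tpm1.

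Of 32 tested collagens and other matrix genes 0 passed, and 12 lay higher and 6 lower. These shares, 37.5% and 18.8%, were near the 31.9% and 23.4% over all features. The fibrillin Fbn2 stood at -2.97, -2.59, -0.77 and -0.37 (2.21 ± 0.26, adjusted p = 0.0519) and the basement membrane collagen Col4a1 at 2.63, 2.99, 4.04 and 4.10 (1.26 ± 0.23, adjusted p = 0.0791). Timp3, an inhibitor of metalloproteinases, stood at 2.23, 1.85, 0.24 and 0.17 (-1.84 ± 0.23, adjusted p = 0.0527), and thrombospondin Thbs1 at 5.31, 5.33, 3.60 and 4.05 (-1.49 ± 0.24, adjusted p = 0.0705). Timp3 was far brighter in sh8 than in WT, where it stood at -0.60, -1.31, -2.03 and -1.58.

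Of 27 tested genes of Wnt and BMP signalling, 0 passed, 9 lay higher (33.3%) and 11 lower (40.7%), against 31.9% and 23.4% over all features. The Wnt receptor gene Fzd2 stood at 1.78, 1.46, 0.22 and 0.09 (-1.47 ± 0.23, adjusted p = 0.0679). The ligand gene Bmp4 stood at 1.85, 2.28, 0.75 and 0.63 in sh8 (-1.38 ± 0.24, adjusted p = 0.0763) and at -0.83, -1.71, -0.90 and -0.68 in WT, below every sh8 array. Id2, a target of BMP signalling, stood at -0.53, -1.95, 0.68 and 0.87 (2.02 ± 0.48, adjusted p = 0.114).

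Inflammatory mediators lay higher in 10 of 20 tested members (50%) and lower in 4 (20%), against 31.9% and 23.4% over all features. The list had a median change of 0.55. Il1rn, the interleukin 1 receptor antagonist, was called, at -4.36, -4.37, -1.81 and -2.19 (2.37 ± 0.23, adjusted p = 0.0391). Il6 stood at 0.08, -1.11, 1.78 and 1.33 (2.07 ± 0.44, adjusted p = 0.0971), inducible nitric oxide synthase Nos2 at -0.62, -0.48, 0.42 and 0.83 (1.17 ± 0.24, adjusted p = 0.091), and hyaluronan synthase Has2 at -0.01, 0.32, 1.85 and 1.47 (1.50 ± 0.25, adjusted p = 0.0736). Il1rn was dim in sh8, and in WT it stood at -3.30, -3.56, -0.36 and -0.28. Its relation to the leukocyte marker signal was not tested.

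Cell cycle genes followed the single days more than the period. The median level of 36 S phase genes was 1.57, -0.26, 0.31 and -0.63 in sh8, and that of 30 genes of G2 and mitosis was 1.97, -1.17, 0.57 and -1.42. Both were highest in the growing culture of day -2, low at confluence, partly up again at day +2 and lowest at day +4. Of the S phase genes 0 passed, 1 lay higher (2.78%) and 3 lower (8.33%), against 31.9% and 23.4% over all features. Of the G2 and mitosis genes 0 passed and 0 lay on either side. The median changes of -0.73 and -0.75 became 0.31 and 0.83 without day -2, and that of G2 and mitosis became 0.24 without day +4, so neither has a settled sign. Mki67, the proliferation antigen, stood at 2.64, -0.58, 1.14 and -2.66 (-1.79 ± 1.53, adjusted p = 0.542), and cyclin Ccna2 at 2.33, -0.83, 0.69 and -1.41 (-1.11 ± 1.18, adjusted p = 0.622). The replicative helicase gene Mcm2 stood at 2.14, -0.01, -0.10 and -0.61 (-1.42 ± 0.70, adjusted p = 0.317).

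Of 13 tested cell cycle inhibitors, 0 passed, 3 lay higher (23.1%) and 4 lower (30.8%), against 31.9% and 23.4% over all features. Cdkn1a, which encodes p21, stood at 1.26, 1.42, 1.18 and 1.16 (-0.17 ± 0.20, adjusted p = 0.659). A dimmer probe of Cdkn1a, also well above background on each sh8 array, moved by -1.815 in sh8 and -1.28 in WT. Its level therefore depends on the probe. The antiproliferative gene Btg1 stood at 5.38, 5.61, 6.59 and 6.88 (1.24 ± 0.23, adjusted p = 0.0809), and Cdkn2d at 2.22, 2.16, 3.12 and 3.18 (0.96 ± 0.20, adjusted p = 0.0966). A dimmer probe of Btg1 that also passed the filter moved by -0.04 in sh8.

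None of 30 ribosomal protein genes, 32 respiratory chain genes, 22 genes of the unfolded protein and stress response, 19 immediate early and heat shock genes, 17 genes of DNA methylation and chromatin or 17 circadian clock genes was called, and their medians lay between -0.09 and 0.17. The clock output repressor Nfil3 stood at 2.61, 2.47, 4.20 and 4.37 (1.74 ± 0.21, adjusted p = 0.0519). Tet1, a dioxygenase of methylcytosine, stood at -2.18, -2.03, -0.92 and -0.23 (1.53 ± 0.29, adjusted p = 0.0829). A dimmer probe of Tet1 that also passed the filter moved the other way, by -0.33 in sh8 and -0.45 in WT. The immediate early factor Egr1 stood at 2.81, 1.14, -0.07 and -0.21 (-2.11 ± 0.55, adjusted p = 0.13).

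**Figure D4:**
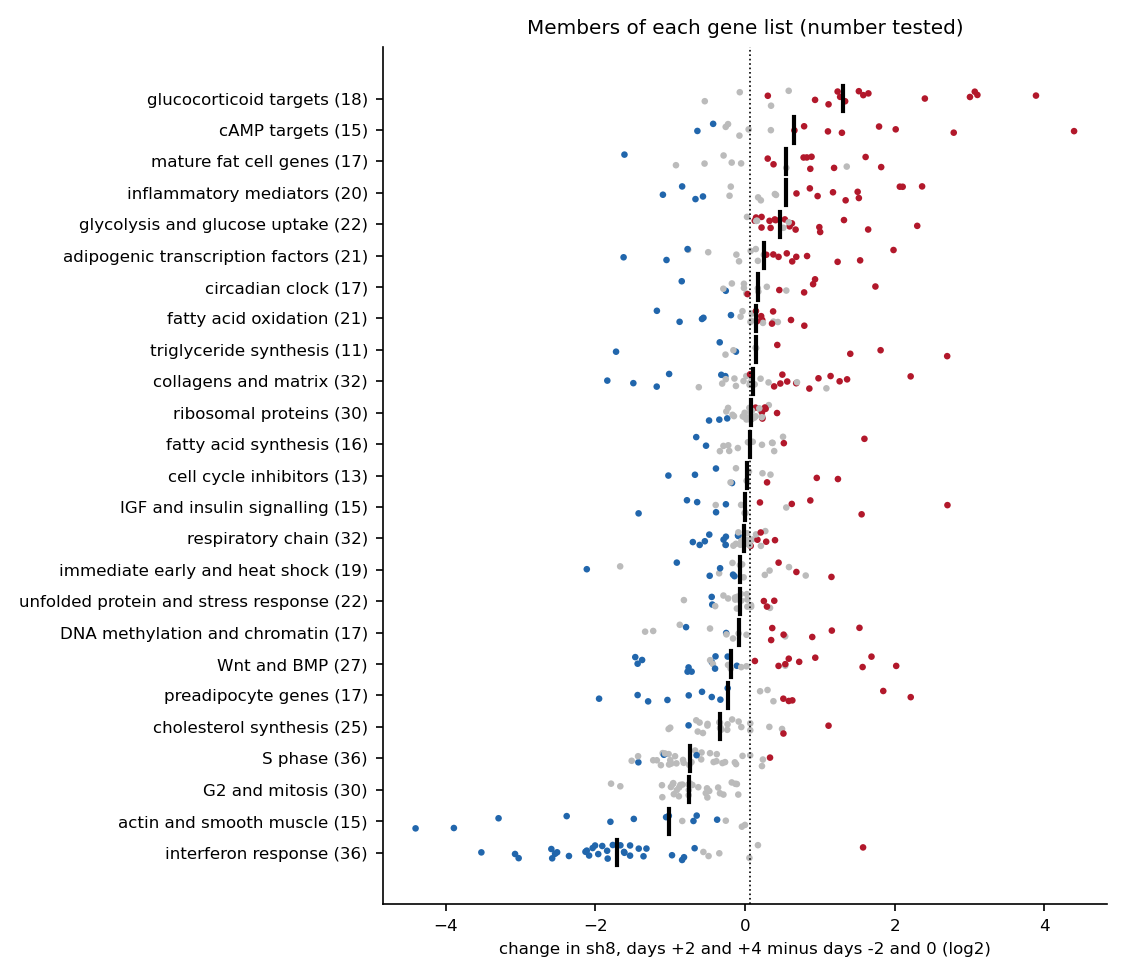
Change of each tested member of 25 gene lists in sh8, as the mean of days +2 and +4 minus the mean of days -2 and 0 on the log2 scale; points are genes, red where both arrays after induction lie above both before, blue where both lie below and grey where they overlap, black bars are list medians and the dotted line is the median of all features. Glucocorticoid targets have a median of 1.30 and interferon response genes one of -1.72.

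The change in sh8 was also set against the change in WT, and on each day both lines lay in the same scan. Of 19915 features well above background on all 4 arrays before induction, the difference between the changes was above 0 for 838 (4.21%) and below 0 for 258 (1.3%) at an adjusted p under 0.05, 1096 in all (5.5%), with 5404 at an unadjusted p under 0.05. The number was 0 without day +2 (3764 at an unadjusted p under 0.05), 114 without day +4, 267 without day -2 and 598 without day 0, and 0 when the model had no term for the day (1643). All values that follow rest on that term and on the array pair of day +2.

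The genes whose sh8 change lay furthest above that of WT included Il33, given above, by 3.35 ± 0.21 (adjusted p = 0.0215). Abca3, the lipid transporter of lung surfactant cells, stood at -4.64, -4.34, -0.75 and -0.31 in sh8 and at -0.70, 0.06, 0.11 and 0.33 in WT (3.42 ± 0.21, adjusted p = 0.0215). There the gap lay before induction. The sums of the 8 lung markers other than Lamp3, given above, were higher in sh8 than in WT on each day, and their part in this difference was not tested.

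Pappa2, a protease of IGF binding proteins, stood at -2.96, -1.80, -0.11 and -0.34 in sh8 and at -0.90, 0.55, -0.79 and -1.36 in WT (3.06 ± 0.19, adjusted p = 0.0215). Mlana, a melanosome protein, stood at -3.65, -1.92, -4.20 and -4.46 in sh8 and at -0.96, 0.10, -4.98 and -4.94 in WT (2.98 ± 0.27, adjusted p = 0.0215). Zfp994, a zinc finger gene, stood at 0.61, 0.30, -0.10 and -1.15 in sh8 and at 0.99, 1.29, -2.48 and -3.23 in WT (2.92 ± 0.25, adjusted p = 0.0215). In Mlana and Zfp994 the change was negative in both lines and larger in WT.

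On the other side, the olfactory receptor gene Olfr1413 stood at -2.92, -2.71, -3.33 and -3.19 in sh8 and at -2.95, -3.12, -0.08 and 0.29 in WT, a difference of -3.58 ± 0.19 (adjusted p = 0.0215). Ecscr, an endothelial surface protein, stood at -0.96, -1.02, -1.14 and -0.91 in sh8 and at -4.43, -5.32, -2.36 and -1.74 in WT (-2.86 ± 0.32, adjusted p = 0.0245). Ptn, the growth factor pleiotrophin, stood at 4.13, 4.55, 2.82 and 2.30 in sh8 and at 4.63, 5.74, 5.45 and 5.73 in WT (-2.18 ± 0.36, adjusted p = 0.04) and was bright on every array. A further probe of Ptn moved by -2.13 in sh8 and 0.68 in WT.

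The other 3 named on this side belong to cell division. Uhrf1, which recruits the maintenance DNA methyltransferase to replicated DNA, stood at 1.94, -0.76, -0.01 and -1.26 in sh8 and at 2.18, 0.12, 2.24 and 1.99 in WT (-2.19 ± 0.39, adjusted p = 0.0474). Trip13, a checkpoint ATPase, stood at 1.48, -1.14, -0.38 and -1.84 in sh8 and at 1.56, -0.84, 1.44 and 1.05 in WT (-2.17 ± 0.37, adjusted p = 0.0427). Pimreg, a regulator of mitosis, stood at 0.72, -3.03, -2.00 and -3.24 in sh8 and at 0.58, -3.23, -0.46 and -0.69 in WT (-2.21 ± 0.34, adjusted p = 0.0366). Trip13 and Pimreg were close between the lines at days -2 and 0 and apart at days +2 and +4, whereas Uhrf1 was already lower in sh8 at day 0, by 0.88 on the log2 scale.

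Of the 36 S phase genes, 9 had a change in sh8 below that in WT and 0 above, against 1.3% and 4.21% over all features, with a median difference of -1.33. Mcm6, a helicase subunit, stood at 3.62, 1.68, 1.81 and 1.25 in sh8 and at 4.18, 2.66, 3.89 and 3.70 in WT (-1.49 ± 0.22, adjusted p = 0.0342). Gins2, of the GINS helicase complex, stood at -1.74, -3.25, -3.09 and -3.56 in sh8 and at -1.40, -2.70, -1.28 and -1.56 in WT (-1.45 ± 0.16, adjusted p = 0.0245). The other 7 were Mcm7, Cdc45, Pold1, Rfc3, Rfc4, E2f1 and Uhrf1, which serve origin firing, polymerase loading, S phase transcription and methylation upkeep. The median level of the list went from 0.04 at day 0 to 1.79 at day +2 in WT and from -0.26 to 0.31 in sh8. Of 30 genes of G2 and mitosis, 2 lay below and 0 above, with a median difference of -1.64.

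Of 17 circadian clock genes, 5 had a change in sh8 above that in WT and 0 below, against 4.21% and 1.3% over all features. Nr1d1, the clock repressor REV-ERB alpha, stood at -3.66, -4.15, -2.79 and -3.21 in sh8 and at -3.80, -4.14, -5.09 and -5.52 in WT (2.24 ± 0.14, adjusted p = 0.0215). Dbp, a clock output factor, stood at 1.08, 2.27, 2.03 and 1.65 in sh8 and at 1.60, 2.53, 0.10 and 0.34 in WT (2.02 ± 0.25, adjusted p = 0.0269). The other 3 were Nr1d2, Bhlhe40 and Rora, by 1.15, 1.27 and 1.45. Clock genes vary with the hour of harvest, which the sources used here do not give, and each value rests on 1 culture.

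Of 17 genes of DNA methylation and chromatin, 3 lay below (Dnmt1, Uhrf1 and Hells) and 1 above, against 1.3% and 4.21% over all features. The 1 above was Tet2, by 1.56 ± 0.17 (adjusted p = 0.0241). Dnmt1, the maintenance methyltransferase, stood at -0.01, -1.73, -1.37 and -2.12 in sh8 and at -0.68, -2.16, -1.05 and -1.44 in WT (-1.04 ± 0.19, adjusted p = 0.0486). Acta2 and Myl9 had a more negative change in sh8 than in WT, by -0.90 ± 0.16 (adjusted p = 0.0443) and -1.55 ± 0.16 (adjusted p = 0.0226). None of the 36 interferon response genes differed between the lines in its change, and neither did Fkbp5 (0.33 ± 0.27, adjusted p = 0.47) or Fabp4 (0.38 ± 0.18, adjusted p = 0.25) at this threshold. For Pparg the difference was -0.62 ± 0.16 (adjusted p = 0.0913).

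**Figure D5:**
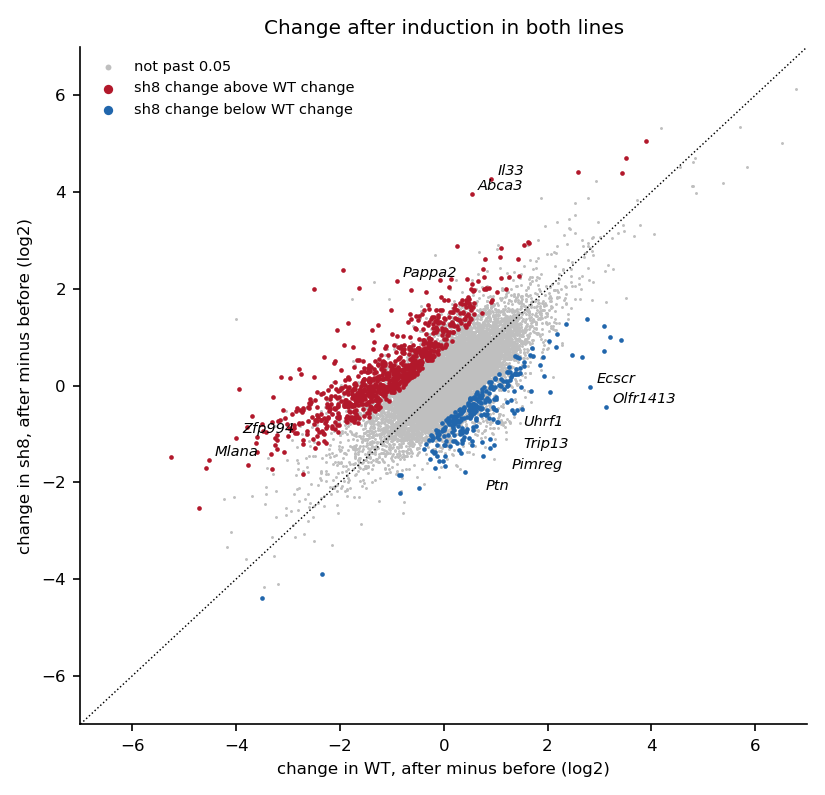
Change after induction in sh8 (vertical axis) against that in WT (horizontal axis), both on the log2 scale, for 19915 features; red points have a change in sh8 above and blue points one below that in WT at an adjusted p under 0.05, grey points did not pass, and the dotted line marks equal change. The 11 named genes are labelled, with Abca3 well above the line (3.42) and Olfr1413 well below it (-3.58).

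Genes that rose from background were listed apart, since they have no measured level before induction. Of 32422 genes and unnamed transcripts on the array, 10039 had no probe well above background on days -2 and 0, and 3167 of these (1769 named) were well above it on both days +2 and +4. The bound on the rise was at least 2-fold for 467 of them, 334 named. On both WT arrays after induction 307 of the 334 were also well above background, and 13 were so on neither. These are counts with no test.

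Of the 10 largest bounds, 6 were those of surfactant, globin and immune cell genes. Sftpc, surfactant protein C, stood at 1.62 and 1.57 after induction, at least 145-fold higher, and Sftpb at 1.06 and 0.97, at least 96.6-fold. The beta globins Hbb-b2 and Hbb-bt were at least 46.8-fold and 35.5-fold higher. The class II antigen gene H2-Eb1 was at least 26.1-fold and the neutrophil gene S100a9 at least 23.9-fold higher. Trf (transferrin), Ramp2, Hspb1 and Eya2 were at least 27.7-fold, 23.4-fold, 21.7-fold and 16.4-fold higher. All 10 were well above background on both WT arrays after induction too.

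By its rule this list holds only genes that rose. Among its other lung, leukocyte and endothelial markers, Ager was at least 12.6-fold higher, Napsa 6.96-fold, Cd52 10.3-fold, Lyz2 5.24-fold, Cldn5 11.4-fold, Cdh5 3.83-fold and Tek 2.25-fold. The red cell genes Alas2 and Hbb-bs were at least 2.75-fold and 2.33-fold higher. Markers that passed the filter did not all rise. Of 5 tested leukocyte markers, 3 lay higher on both arrays after induction and 1 lower, Cd74 at -0.85. Of 4 tested lung markers 3 lay higher, and Lamp3 (0.13) overlapped between periods. The 1 tested endothelial marker, Pecam1 (-0.05), overlapped too.

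Fat cell genes entered this list with small bounds. Adiponectin, Adipoq, stood at -4.92 and -5.00 after induction, at least 1.54-fold higher, while its 2 WT arrays after induction stood at -4.51 and -1.50. Plin1 stood at -5.28 and -4.34 (at least 1.71-fold), against -4.17 and -2.50 in WT. Cfd, the fat cell protease adipsin, stood at -3.79 and -5.44 (at least 1.95-fold), against -4.42 and -2.64 in WT. The glucose transporter gene Slc2a4 stood at -4.95 and -5.62 (at least 1.23-fold). In WT the array of day +4 held the higher level of Adipoq, Plin1 and Cfd, and in sh8 that was so for Plin1 alone.

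Among the remaining list members, Pde7b, a phosphodiesterase of cyclic AMP, stood at -3.77 and -4.35 in sh8 (at least 2.88-fold) and was well above background on neither WT array after induction. Lmod1, a smooth muscle actin nucleator, was likewise measured in sh8 but not in WT, with a bound of 1.24-fold. The cell cycle inhibitor and glucocorticoid target Cdkn1c was at least 2.43-fold higher, Thrsp, a regulator of fatty acid synthesis, 2.39-fold, Icam1 2.93-fold, Nt5e 4.91-fold, Igfbp3 1.95-fold, Il1b 1.42-fold and Areg 1.20-fold.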

How the data were processed

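RNA of mouse 3T3-L1 cells was labelled with Cy3 and measured on 1-colour Agilent arrays, although the series text names another maker. Agilent Feature Extraction 11.0.1.1, per the file headers, quantified the scans with a design on mm9, and the deposited files hold a processed intensity per spot, not scaled between arrays. The authors also deposited log2 values of the same arrays, which share their quantiles between arrays (median 6.39). The sources used here do not say how these were made, and they served as an alternative.

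From each of 44397 spots, 1377 controls were left out and repeats averaged to 39429 probes; 46 were dropped for outlier flags, and 27234 were named through RefSeq accessions (12195 were not). The log2 of the processed intensity, less its 75th percentile on each array, went into lmFit and eBayes of limma 3.58.1 (R 4.3.3, data.table version 1.17.8), with Benjamini-Hochberg adjustment over all features tested and 0.05 as the threshold. The sh8 fit held 4 arrays and no covariate (2 residual degrees of freedom). The interaction fit held 8 arrays with day and line (2 residual degrees of freedom). Of a gene's kept probes, the one with the highest mean was used. SE is that of the moderated fit. In the sh8 fit, p-values measure the spread between the days of a period. In the interaction fit, which holds day, they measure how the difference between the lines varies between the days of a period. Neither rests on separate cultures, and array number limits the precision. Alternatives were quantile scaling, normexp (offset 50, on median signals because the files hold no mean signal), the authors' values, other filters, all 8 arrays, probe means, a variance trend and leaving out each array. The members and gene lists were chosen with earlier results of these data known, as was the search of 3 promoter motifs. Named genes were the 10 largest rises and falls called, up to 5 members of a list by lowest p, 6 each way for the interaction (1 of which is not reported here), the 10 largest bounds, and 12 genes always given; exceptions are marked.

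The fits were tested on simulated data with 200 changed genes, 68 of them changed 2-fold, 66 changed 4-fold and 66 changed 16-fold. For sh8 after against before (20442 features), 5.88% of 2-fold, 93.9% of 4-fold and 98.5% of 16-fold changes were recovered with 14 false calls. For the change in sh8 minus that in WT (19915), the shares were 63.2%, 98.5% and 100%, with 20 false calls. The simulated noise was drawn for each gene independently, from the moderated variance of the fit. In the data the spread holds differences between days, for the interaction those in the gap between the lines. Genes of a list can share these differences, so the rates above need not hold there.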

Additional observations from a re-analysis of the deposited data

Results flagged for a closer look

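The change after induction differed between sh8 and WT, by the interaction term of limma with Benjamini-Hochberg adjustment, for the 11 genes named by rule in that comparison. Above 0 (sh8 change minus WT change, log2) lay Abca3 at 3.42, Il33 at 3.35, Pappa2 at 3.06, Mlana at 2.98 and Zfp994 at 2.92. Below 0 lay Olfr1413 at -3.58, Ecscr at -2.86, Pimreg at -2.21, Uhrf1 at -2.19, Ptn at -2.18 and Trip13 at -2.17. Of these 11 calls, 7 held without day -2, 8 without day 0, 4 without day +4 and 0 without day +2, and 0 held without the day term. With normexp 11 of 11 held, and 9 of 11 with quantile scaling. Single arrays could not be set against others of their group, since each group holds 1 array.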

How the results depend on the processing

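No paired analysis was possible because each line and day has 1 array and every array carries replicate number 1, so the groups compared share fewer than 2 numbers. The scan could not be used as a block, since scan and period hold the same sh8 arrays. For sh8 after against before induction, the count of 93 (73 higher, 20 lower) ranged from 0 to 3905 when 1 array was left out (higher 0 to 2441, lower 0 to 1464). It was 0, 0 higher and 0 lower, among probes with a mean of at least -3 before induction, a minimum chosen after seeing the data. It was 147 with normexp (113 higher, 34 lower), 1653 with probes well above background on 2 of 4 sh8 arrays (1509 and 144), 836 with no filter (778 and 58) and 1584 with all 8 arrays in the fit (1087 and 497). Quantile scaling gave 34 lower and the authors' values 40, with totals of 94 and 107. Probe means gave 92 and a variance trend 122. Why the counts move was not tested. For the change in sh8 minus that in WT, the count of 1096 was 267 without day -2 of both lines (228 above 0, 39 below), 598 without day 0 (492, 106), 0 without day +2 (0, 0) and 114 without day +4 (106, 8), was 0 (0 above, 0 below) without the day term and was 1764 with normexp (651 below). Quantile scaling, the authors' values and the sh8 filter gave 1005, 988 and 823. Genes rising from background numbered 4989 if 1 array after induction was enough, and 219 instead of 467 had a bound of at least 2-fold with quantile scaling.

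Of the 161 named changes in sh8, the sign turned for Cebpb with normexp (-0.078) and for these when 1 array was left out, with their range over such fits: Cebpb -0.113 to 0.26, Lpl -1.06 to 0.48, Mki67 -3.69 to 0.11, Lamp3 -0.047 to 0.31, Pecam1 -0.19 to 0.082, Kif23 -3.39 to 0.059, Anln -2.53 to 0.32, Ccna2 -2.69 to 0.47, Cd3e -0.30 to 0.17 and Pdgfra -0.19 to 0.94. Chl1 turned to 2.15 with no filter, where another probe is chosen. Of the list medians, those of interferon response, actin and smooth muscle, glucocorticoid targets, cAMP targets, mature fat cell genes, inflammatory mediators and glycolysis kept their sign in all 13 alternatives. So did those of adipogenic transcription factors, fatty acid oxidation, Wnt and BMP, and circadian clock.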
